A study of Mus musculus with 2 samples.

Results

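Lrrc17 is described here across the neuron classes and non-neuronal cell types of the mouse trigeminal ganglion (TG), as 1 gene of the 39098 gene symbols counted in either of a pair of single-cell libraries. It was chosen by its high ratio of the CFA library to the control library among the well-counted genes of neurons, and that ratio is therefore given as a description. Both libraries came from the right TG of male C57BL/6 mice of 5 to 8 weeks, taken 7 days after injection into the right vibrissal pad. The CFA library followed complete Freund's adjuvant diluted in saline, which causes inflammation of the whisker pad. The control library is labelled untreated, whereas the methods of the study describe an injection of saline. The study used 6 mice per group, and how many of them a library holds is not stated. Each condition has 1 library, so no difference between the conditions had a replicate check and no test was made. Every interval below is a 95% interval for counting error alone and leaves out the variation between mice. The intervals of levels and ratios also leave out the spread between cells beyond counting error.

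Lrrc17 encodes a secreted protein with leucine-rich repeats, a fold that many extracellular proteins use to bind a partner. It is known from bone, where osteoblasts release it and it restrains the formation of osteoclasts driven by RANKL, the ligand of the receptor RANK. The TG holds the cell bodies of the sensory neurons of the face. These include peptidergic nociceptors (PEP1 and PEP2 here), non-peptidergic nociceptors (NP1 and NP2), large neurofilament-rich neurons (NF), cold-sensing Trpm8 neurons and C-fibre low-threshold mechanoreceptors (cLTMR). Satellite glial cells (SGC) wrap the cell bodies, and myelinating and non-myelinating Schwann cells (mSC and nmSC) accompany the axons.

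In GRCm38 with the GENCODE M21 annotation, Lrrc17 (ENSMUSG00000039883.5) lies on the plus strand at chr5:21543559-21575904. Its coding transcript has 4 exons and 443 codons before the stop codon. Its last exon holds the stop codon and the 3′ UTR, together 546 bases, at chr5:21575359-21575904. The gene lies inside Fbxl13, which runs on the minus strand over chr5:21483847-21645634. The first exon of Lrrc17 shares 60 bases with an exon of Fbxl13, and the last exon shares 0. Whether the counting used strand is not given in the sources used here. Fbxl13 had 5 UMIs in control neurons and 0 in CFA neurons, against 1223 and 1472 UMIs of Lrrc17, where a UMI is a unique molecular identifier that marks 1 captured RNA molecule.

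The control library kept 6695 cells with 48233077 UMIs, and the CFA library kept 3661 cells with 21658155 UMIs. The libraries shared 27 cell barcodes. Named clusters gave 822 control neurons and 428 CFA neurons, with a median of 43660 and 35110 UMIs per neuron. All levels below are UMIs per 1000000 UMIs of the same cells (CPM), not divided by gene length.

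Lrrc17 was found throughout the neurons of both libraries, and its level was higher in CFA neurons in every class. Over all neurons it stood at 31.7 CPM (29.9 to 33.5) in the control library against 87.5 CPM (83.1 to 92.1) in the CFA library. The ratio was 2.77-fold (2.56 to 2.99), or 1.47 on the log2 scale (1.36 to 1.58). The median gene moved by less than 0.01 on that scale. Of the 9510 genes with at least 500 counts in neurons, 8 genes (0.0841%) were past 2-fold higher in the CFA library, and the rule that chose Lrrc17 used this same contrast. Lrrc17 ranked at 2 among them. The processed pseudogene Gm10123, whose reads may be shared with near-identical copies, came just before it at 10.9 and 30.2 CPM, with a log2 ratio of 1.47 as well. Chp2, which encodes a calcium-binding protein related to calcineurin B, came next at 14.1 and 35.7 CPM, with a log2 ratio of 1.34. With at least 1000 counts required, Lrrc17 ranked at 1 of 7511 genes, and with at least 200, 100 or 50 counts it ranked at 7 of 11505, 13 of 12942 and 32 of 14502.

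The higher level was spread over many neurons rather than carried by a few. Of the control neurons, 63.4% (59.98 to 66.7) held at least 1 Lrrc17 UMI, against 84.1% (80.3 to 87.4) of the CFA neurons, although the CFA neurons were shallower. With every neuron taken at 20000 UMIs, the expected share was 46.0% over the 683 control neurons of that depth and 78.2% over the 336 CFA neurons. The median neuron held 1 UMI in the control library against 3 UMIs in the CFA library, and the highest held 10 and 18. At least 10 UMIs were found in 1 of 822 control neurons and in 14 of 428 CFA neurons. The variance of the UMIs per neuron divided by their mean was 1.86 in the control library against 2.51 in the CFA library.

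**Figure D1:**
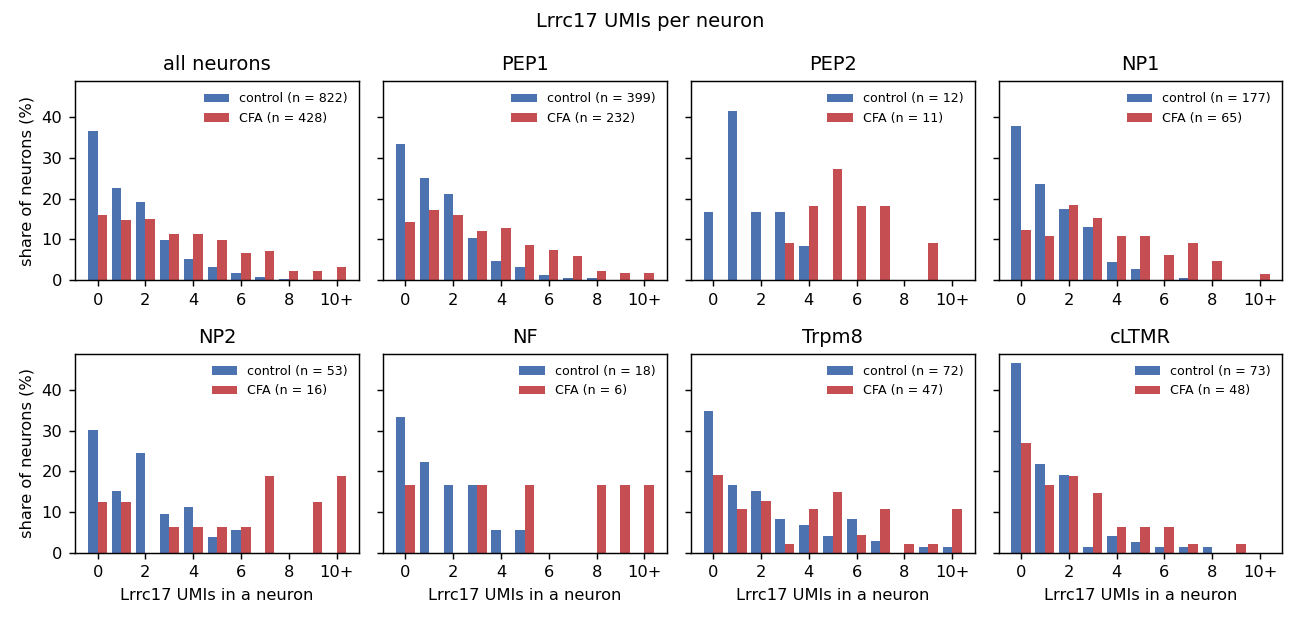
Lrrc17 UMIs per neuron for all neurons and for each of the 7 classes. Each bar is the share of the neurons of 1 library (blue, control, and red, CFA) with that number of UMIs, with n neurons per library in the legends. In every panel a smaller share of the CFA neurons than of the control neurons lies at 0 UMIs, with 15.9% against 36.6% over all neurons.

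The cold-sensing Trpm8 neurons held the highest level of Lrrc17 in both libraries. Their level was 58.6 CPM (49.8 to 68.5) in 72 control neurons and 165 CPM (143 to 190) in 47 CFA neurons, so that the log2 ratio was 1.496 (1.19 to 1.81). In the control library, counting error did not separate Trpm8 from NF neurons (log2 ratio of Trpm8 over NF 0.52, -0.06 to 1.16). Trpm8 neurons were also the shallowest class, with a median of 34376 control and 22380 CFA UMIs. The part of depth in their high level was not tested. At 20000 UMIs, a UMI of Lrrc17 was expected in 62.7% of the 50 control and in 96.7% of the 26 CFA Trpm8 neurons with at least that depth. Over all Trpm8 neurons, a UMI was found in 65.3% in the control library and in 80.9% in the CFA library. Trpm8 neurons were 8.76% of the control neurons and gave 12.8% of the neuronal Lrrc17 UMIs there. In the CFA library they were 10.98% of the neurons and gave 13.8%.

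Among the nociceptors, PEP1 neurons held more Lrrc17 than NP1 neurons in both libraries when all depths were pooled, with no overlap of their intervals. The NP1 neurons were deeper, with a median of 66037 control and 61994 CFA UMIs against 35775 and 30611 in PEP1. PEP1 neurons of 60000 to 80000 UMIs stood at 33.8 CPM in the control library and at 62.5 CPM in the CFA library. The part of depth in the difference between these classes was not tested. PEP1, the most numerous class with 399 control and 232 CFA neurons, stood at 38.2 CPM (35.2 to 41.4) and 97.2 CPM (90.3 to 104). PEP2 had only 12 and 11 neurons, at 34.9 CPM (21.0 to 54.5) and 111 CPM (85.2 to 143). The CFA PEP2 neurons held 3 to 9 UMIs and the control PEP2 neurons 0 to 4, as single cells of 1 library each, which are not replicates. NP1 neurons stood at 20.7 CPM (18.1 to 23.5) in the control library against 56.6 CPM (49.4 to 64.5) in the CFA library. The log2 ratios were 1.35 (1.19 to 1.505) in PEP1, 1.67 (0.91 to 2.50) in PEP2 and 1.45 (1.18 to 1.72) in NP1.

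The largest ratio of the 7 classes was in NP2, the class of nociceptors that includes itch-sensing neurons. NP2 stood at 27.9 CPM (22.7 to 33.9) in 53 control neurons and at 106 CPM (86.0 to 130) in 16 CFA neurons, so that the log2 ratio was 1.93 (1.51 to 2.35). The median NP2 neuron held 2 UMIs in the control and 6.5 UMIs in the CFA library. Of the 8375 genes with at least 50 counts in NP2, 0.513% were past 2-fold higher, and Lrrc17 ranked at 1 by its ratio. The smallest ratio was in cLTMR neurons, which signal gentle touch, at 22.8 CPM (18.3 to 28.0) and 49.8 CPM (40.8 to 60.1) and a log2 ratio of 1.13 (0.71 to 1.55). The intervals of the NP2 and the cLTMR ratio overlapped, and the difference between them was not tested. NF neurons, with 18 and 6 cells, stood at 40.7 CPM (27.1 to 58.9) and 110 CPM (77.8 to 151), with a log2 ratio of 1.43 (0.69 to 2.19). Among all genes, the share past 2-fold higher with at least 50 counts was 0.653% in PEP1, 1.28% in PEP2, 0.413% in NP1, 0.427% in Trpm8, 0.29% in cLTMR and 1.75% in NF neurons. Lrrc17 was past that fold in all 7 classes, and by its ratio it ranked at 4 in Trpm8, 10 in NP1, 12 in PEP2, 16 in cLTMR and 23 in PEP1 and NF neurons.

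**Figure D2:**
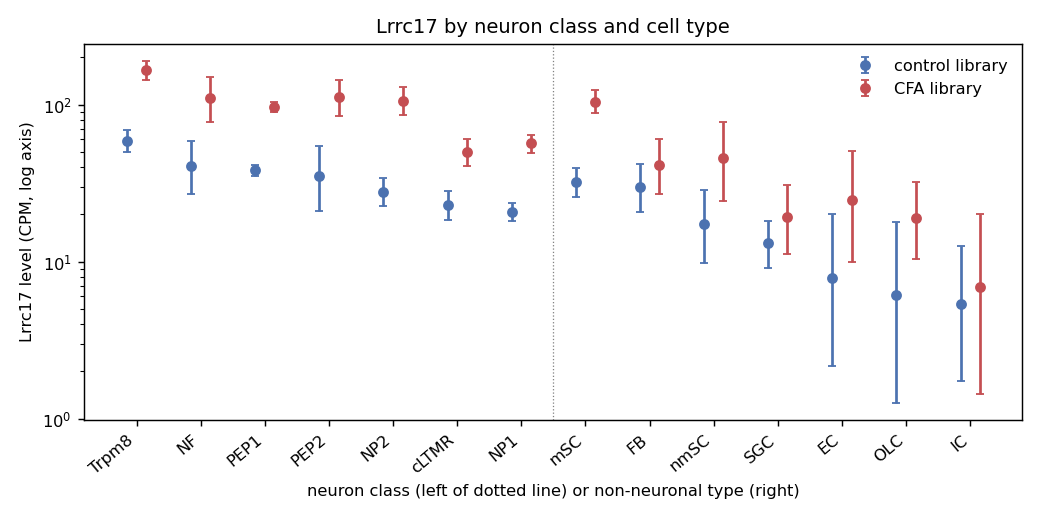
Lrrc17 level in CPM on a log axis for 7 neuron classes and 7 non-neuronal types, with 1 point per library (blue, control, and red, CFA) and 95% Poisson intervals for counting error. In every neuron class and in mSC the CFA interval lies above the control interval, whereas the intervals overlap in FB, nmSC, SGC, EC, OLC and IC.

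In both libraries Trpm8 neurons were highest and the NP1 and cLTMR neurons lowest, whereas the order of the other classes differed. From highest to lowest, the control order was Trpm8, NF, PEP1, PEP2, NP2, cLTMR and NP1, and no neighbours in it were separated by counting error. The CFA order was Trpm8, PEP2, NF, NP2, PEP1, NP1 and cLTMR. There, counting error separated Trpm8 from PEP2 (log2 ratio 0.57, 0.15 to 1.01) and PEP1 from NP1 (0.78, 0.56 to 1.00), and no other neighbours. Over the 7 classes, Pearson's r between the log2(CPM + 1) of the libraries was 0.91, as a description over classes that share a library.

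The neuron clusters below the level of the classes gave the same direction. They divide the same neurons whose ratio chose Lrrc17, so this direction follows in part from that choice. The PEP2, NF, Trpm8 and cLTMR classes were not split, so their clusters repeat the classes. In the 14 named clusters with at least 5 neurons in each library, Lrrc17 ranged from 18.7 to 58.6 CPM in the control and from 49.8 to 165 CPM in the CFA library. The log2 ratio was between 1.10 and 2.02, with 14 of 14 intervals above 0. The remaining named cluster, of PEP1 with 17 control and 2 CFA neurons, had a log2 ratio of 1.42 (-0.03 to 2.67), an interval that held 0. The PEP1 clusters differed among themselves, from 25.2 to 51.6 CPM in the control library for clusters 8 and 7, and these stood at 66.1 and 123 CPM in the CFA library. A cluster of 18 control and 3 CFA neurons that took no class name had 0 Lrrc17 UMIs in the control library, which allows up to 14.0 CPM at 3 counts, and 1 UMI in the CFA library. These were shallow cells with a median of 12479 UMIs, and mt-Rnr1 and mt-Rnr2 were among the 10 leading genes of the cluster.

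**Figure D3:**
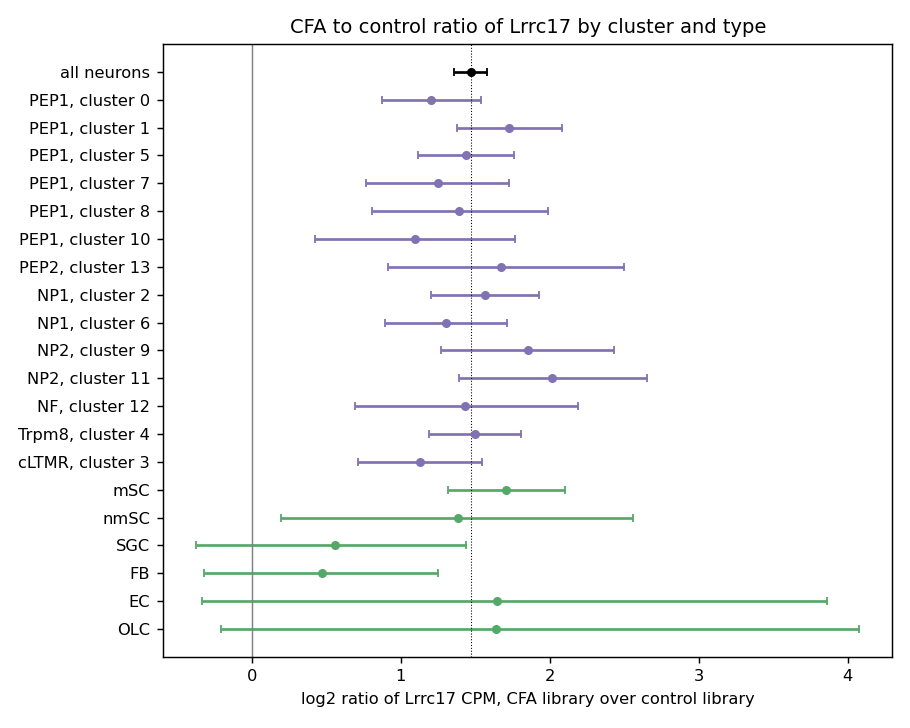
Log2 ratio of the Lrrc17 level in the CFA library over the control library for all neurons (black), the 14 neuron clusters with at least 5 neurons per library (purple) and 6 non-neuronal types (green). Bars are 95% intervals for counting error, the grey line marks no difference and the dotted line the ratio of all neurons at 1.47. Every neuron cluster plotted and mSC lie above 0, and so does nmSC, with 15 and 13 UMIs and a ratio of 0.25 without the mitochondrial limit on cells. The bars of SGC, FB, EC and OLC cross 0.

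Among neurons with at least 20000 UMIs, those with 60000 or more held lower levels of Lrrc17 in both libraries. Control neurons stood at 38.8 CPM (34.3 to 43.7) where they held 20000 to 40000 UMIs and at 25.3 CPM (22.5 to 28.4) where they held 80000 or more. The CFA neurons of these depths stood at 113 CPM (104 to 123) and 57.5 CPM (48.7 to 67.4). The CFA library was above the control library at every depth, with a log2 ratio of 2.41 (1.68 to 3.21) at 10000 to 20000 UMIs and of 1.18 (0.89 to 1.47) at 80000 or more. Within PEP1 alone, control neurons stood at 39.7 CPM and CFA neurons at 113 CPM where they held 20000 to 40000 UMIs, and at 33.8 and 62.5 CPM where they held 60000 to 80000. The log2 ratio there was 1.505 (1.26 to 1.75) at the lower depth and 0.89 (0.36 to 1.42) at the higher.

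**Figure D4:**
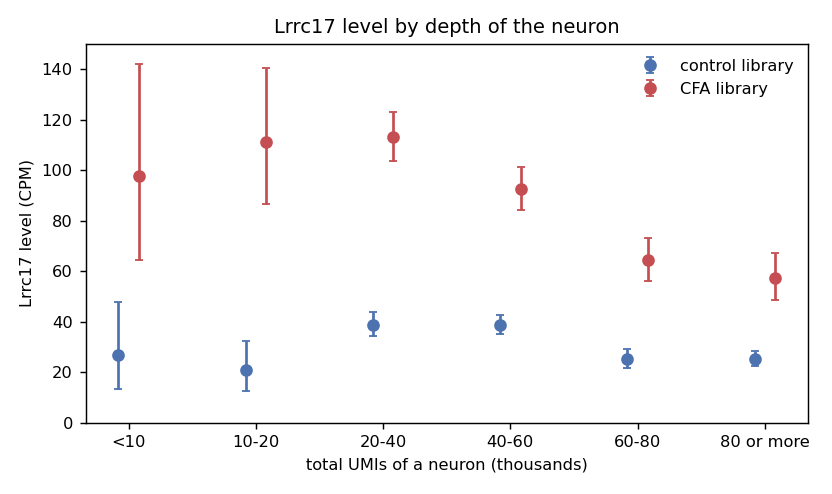
Lrrc17 level in CPM against the total UMIs of a neuron, in 6 ranges of depth, for the control library (blue) and the CFA library (red) with 95% Poisson intervals for counting error. The CFA points lie above the control points in all 6 ranges, and in both libraries the points at 60000 UMIs or more lie below those at 20000 to 60000.

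In the control library, no Lrrc17 UMI was found in the neurons with the highest share of mitochondrial counts, in a comparison that was not matched for depth. The 765 control neurons with at most 5% mitochondrial counts stood at 32.1 CPM, and the 34 control neurons with over 10% had 0 UMIs of Lrrc17, with an upper limit of 8.07 CPM. The 406 CFA neurons with at most 5% stood at 86.7 CPM (82.3 to 91.3), and the 11 CFA neurons with over 10% stood at 108 CPM (62.7 to 172), so that these intervals overlapped.

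Outside the neurons, Lrrc17 was best counted in the myelinating Schwann cells. The 2312 control mSC held 91 UMIs at 32.0 CPM (25.8 to 39.3), and the 1379 CFA mSC held 143 UMIs at 105 CPM (88.2 to 123). The log2 ratio was 1.71 (1.32 to 2.10), in cells that the choice of Lrrc17 did not use but that come from the same pair of libraries. Gm10123 and Chp2, next to Lrrc17 in the neuronal order, had mSC log2 ratios of 1.64 (0.51 to 2.83) and 0.66 (0.43 to 0.90). Among the 8 genes past 2-fold higher in neurons, the mSC log2 ratios ran from -1.17 to 2.47. Of the 8383 genes with at least 50 counts in mSC, 1.05% were past 2-fold higher in the CFA library, and Lrrc17 ranked at 6 by its ratio. As CPM, the mSC level was 101% of the neuronal level in the control library against 120% in the CFA library. A UMI was found in 3.81% (3.06 to 4.67) of control mSC and in 8.99% (7.53 to 10.6) of CFA mSC, which are shallow cells with a median of 1061 and 879 UMIs. In immune cells (IC), the type with the lowest level in both libraries apart from the sparse mural cells and erythrocytes, the share was 1.205% in both libraries at a median of 1775 and 1549 UMIs. At 500 UMIs per cell the expected share was 1.71% and 5.01% in mSC, and 0.215% and 0.403% in IC. Other types lay between these in the CFA library. The share was 0% in control and 4.18% in CFA erythrocytes, and 1.51% and 2.79% in fibroblasts. In oligodendrocyte-like cells it was 0.614% and 2.70%, and in nmSC 0.922% and 2.31%. Both of the mSC clusters, named from markers that include the myelin gene Prx, gave the same picture, at 31.8 and 105 CPM in cluster 0 and at 33.0 and 104 CPM in cluster 6.

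UMIs of neuron marker genes were found in the mSC too, at a summed level that was lower in the CFA library. The source of these UMIs was not tested. The summed level of 10 neuron markers in mSC was 12.4% of that in neurons in the control library against 7.03% in the CFA library, with 9 of the 10 markers lower in the CFA library. In IC it was 5.42% and 2.08% of the neuronal level, and in SGC 4.10% and 1.99%. In OLC the summed level was the highest of the non-neuronal types and higher in the CFA library, at 15.5% and 17.2%. Only 3 of the 10 markers were higher there in the CFA library, and 7 were lower. Lrrc17 stood at 6.13 and 19.0 CPM in OLC, and the part of RNA from neurons in that level was not tested. In mSC with no UMI of any of these markers, Lrrc17 stood at 38.9 CPM (27.5 to 53.3) in 950 control cells and at 94.98 CPM (75.6 to 118) in 941 CFA cells. In mSC with such UMIs it stood at 28.5 CPM (21.3 to 37.2) and 122 CPM (93.1 to 157). In neurons, the markers of mSC were at 1.21% of their level in mSC in the control library against 1.10% in the CFA library.

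The other types held fewer counts and gave wider intervals. The nmSC, a class named from 7 of 9 markers with none of them among its 10 leading genes, held 15 and 13 UMIs at 17.4 CPM (9.74 to 28.7) and 45.4 CPM (24.2 to 77.6), with a log2 ratio of 1.38 (0.19 to 2.56) where 1.37% of genes were past 2-fold higher. This ratio was 0.25 without the mitochondrial limit on cells, 0.78 at a lower and 0.68 at a higher resolution of the clusters, with CFA levels of 23.8, 25.4 and 25.7 CPM. Satellite glial cells, which lie against the neuronal cell bodies, held 34 and 17 UMIs at 13.1 CPM (9.06 to 18.3) and 19.2 CPM (11.2 to 30.8). Fibroblasts (FB), the source of the collagen matrix of the ganglion, held 34 and 26 UMIs at 29.8 CPM (20.6 to 41.6) and 41.3 CPM (27.0 to 60.5). The log2 ratio was 0.56 (-0.37 to 1.44) in SGC and 0.47 (-0.32 to 1.25) in FB, so that no difference was detectable there at this depth. The SGC ratio was -0.32 in cells with no UMI of the 10 neuron markers, and the FB ratio was 0.16 in such cells and -0.58 in cells with at least 2000 UMIs. FB held a cluster of 6 control and 37 CFA cells with 1 UMI of Lrrc17 in each library, and without it the log2 ratio of FB was 0.71 (-0.10 to 1.501).

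Endothelial cells (EC) held 4 and 7 UMIs of Lrrc17 at 7.88 CPM (2.15 to 20.2) and 24.6 CPM (9.89 to 50.7). Oligodendrocyte-like cells (OLC) held 3 and 14 UMIs at 6.13 CPM (1.26 to 17.9) and 19.0 CPM (10.4 to 32.0). IC held 5 and 3 UMIs at 5.37 CPM (1.74 to 12.5) and 6.91 CPM (1.42 to 20.2), and the intervals of the EC, OLC and IC ratios all held 0. Mural cells held 2 UMIs in the control library against 0 in the CFA library, where 3 counts would be 94.9 CPM. Erythrocytes held 0 and 8 UMIs, and the lower limit of the interval of their ratio was 1.01-fold. The CFA erythrocytes stood at 58.8 CPM (25.4 to 116), with a UMI in 8.25% (3.63 to 15.6) of the cells. With the control cells set to a floor of 3 counts, the CFA level was 1.58-fold higher. Of the 491 genes with at least 50 counts in erythrocytes, 20.2% were past 2-fold higher in the CFA library. Lrrc17 had too few counts to be among them. Of all Lrrc17 UMIs in a library's kept cells, neurons gave 86.7% and 86.4%, and mSC gave 6.45% and 8.397%. These shares stand beside the large share of all UMIs that neurons held. Of the kept UMIs of all genes, neurons held 38633692 of 48233077 in the control library and 16814047 of 21658155 in the CFA library. The mSC held 2839845 and 1365808 of them.

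For comparison with Lrrc17, genes of like level in control neurons were taken. These were the 20 genes nearest to Lrrc17 in control neurons, 10 above and 10 below, among genes with at least 80% of their counts in neurons. The nearest above were Nol6, Gm44509 and Dpagt1, and the nearest below were Ift22, Jhy and Tctex1d2. At 31.6 to 31.8 CPM in control neurons, the 20 genes stood at 22.5 to 42.7 CPM in CFA neurons, with a median of 31.7 CPM. Their log2 ratios lay between -0.49 and 0.43 with a median of 0.00, and 0 of 20 were past 2-fold higher, where 0.0841% of all genes with at least 500 counts were. Apart from the 80% filter, the 20 genes were matched on the control level alone, whereas Lrrc17 was chosen for its ratio in neurons. Its place above them in CFA neurons follows from that choice. Nol6, which takes part in ribosome assembly, stood at 31.7 and 41.4 CPM. Ift22, a gene of transport in cilia, stood at 31.6 and 31.8 CPM.

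The detection of Lrrc17 was set beside that of the like-level genes. They were found in 49.8% to 69.8% of control neurons, with 16 of 20 above the share of Lrrc17 at 63.4%. In CFA neurons they were found in 35.5% to 68.5%, with 0 of 20 above Lrrc17 at 84.1%, a comparison that is not independent of the choice of Lrrc17 by its ratio. In mSC the 20 genes lay between 3.52 and 23.2 CPM in the control library. Their CFA levels lay between 1.46 and 43.9 CPM, below Lrrc17 in both. In SGC, 14 of the 20 genes were above Lrrc17 among control cells and 7 among CFA cells.

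**Figure D5:**
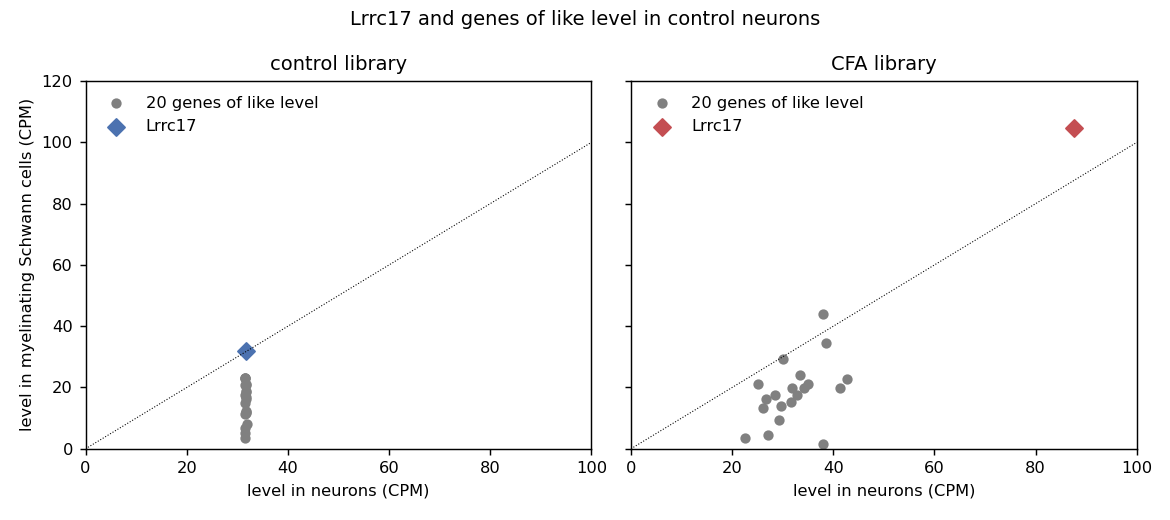
Level in mSC against level in neurons, both in CPM, for Lrrc17 (diamond) and the 20 genes nearest to it in control neurons (grey), with the control library on the left and the CFA library on the right. The dotted line marks equal levels. Lrrc17 lies near the line in both libraries and moves from 31.7 and 32.0 CPM to 87.5 and 105 CPM, whereas the grey points stay at or under 43.9 CPM on both axes.

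To find the genes whose pattern over the 7 neuron classes was most like that of Lrrc17, 9509 neuronal genes of at least 500 counts were ordered by the lower of Pearson's r in the libraries on log2(CPM + 1). The leading gene was Gphn, which encodes gephyrin, the scaffold of inhibitory synapses, with a lower r of 0.97. Among those that followed were Bc1, a short non-coding RNA of neuronal dendrites, at 0.95, Rbbp7, a histone-binding protein, at 0.92, and Spats2 at 0.90. These 4 genes were highest in Trpm8 neurons of the CFA library, which follows in part from their choice by likeness to Lrrc17. Gphn stood at 69.1 CPM in control and 74.1 CPM in CFA Trpm8 neurons, and its log2 ratio over all neurons was 0.19 (0.06 to 0.31). Bc1 stood at 969 CPM in control neurons and 1873 CPM in CFA neurons, with a ratio on the log2 scale of 0.95 (0.93 to 0.97). The log2 ratios of Rbbp7 and Spats2 were -0.08 and 0.13, each with an interval that held 0.

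In the RANKL pathway, in which Lrrc17 acts in bone, the ligand and the decoy receptor were sparsely counted in neurons. The ligand gene Tnfsf11 had 8 and 4 UMIs in neurons, and Tnfrsf11b, which encodes the decoy receptor osteoprotegerin, had 2 and 1. The receptor gene Tnfrsf11a was counted better, at 16.5 CPM in control and 21.5 CPM in CFA neurons, with a ratio on the log2 scale of 0.38 (0.19 to 0.57), and its highest level was in IC. Src, a kinase downstream of RANK, stood at 25.1 and 27.9 CPM, a log2 ratio of 0.15 (-0.01 to 0.32). Tec, another kinase gene of the pathway, stood at 6.99 and 5.17 CPM, a log2 ratio of -0.43 (-0.80 to -0.08). Of the 10 genes, 7 had at least 50 counts in neurons, with a median log2 ratio of 0.04 against 0.00 for all 14502 such genes, and 0 of 7 were past 2-fold higher, where 1.01% of all such genes were.

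Other extracellular genes with leucine-rich repeats had ratios on both sides of 0. Of 57 such genes, 43 had at least 50 counts in neurons, with log2 ratios from -2.17 to 1.18 and a median of -0.06 against 0.00 for all 14502 such genes. The lowest ratio was that of Ogn, at 3.21 and 0.71 CPM in neurons, whose highest level was 1413 CPM in mSC. Lum, at a log2 ratio of -2.16, had its highest level in FB at 2655 CPM. The part of RNA from other cell types in such ratios was not tested. Intervals lay above 0 for 7 of the 43 genes and below 0 for 12, where 22.2% of all such genes lay above 0 and 21.7% below. Past 2-fold higher was 1 of the 43, near the 1.01% of all genes. This was Lgi2, of the family of synaptic proteins that includes Lgi1, at 4.89 and 11.1 CPM with a log2 ratio of 1.18 (0.88 to 1.48). Flrt1, an adhesion protein gene of axons, stood at 24.5 and 35.9 CPM, a log2 ratio of 0.55 (0.40 to 0.70). Amigo3, which encodes a neuronal adhesion protein, stood at 44.4 and 30.6 CPM, a log2 ratio of -0.53 (-0.68 to -0.39). Dcn and Lum, small proteoglycans of the collagen matrix, were highest in FB, and the 14 genes highest there stood beside 15 that were highest in neurons. Flrt1, Amigo3, Dcn, Lum and Ogn were named after their values were seen.

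The genes beside Lrrc17 on chromosome 5 did not share its ratio. Fam185a, which lies 61435 bases before it, stood at 12.3 and 11.1 CPM in neurons, a log2 ratio of -0.15 (-0.40 to 0.10). Armc10, which lies 69909 bases after it, stood at 22.5 and 21.0 CPM, a log2 ratio of -0.10 (-0.28 to 0.08). Napepld, the enzyme that releases anandamide and related lipids, stood at 3.99 and 5.83 CPM, a log2 ratio of 0.55 (0.17 to 0.92). Pmpcb, a subunit of the peptidase that trims proteins entering mitochondria, stood at 66.7 and 56.0 CPM, a log2 ratio of -0.25 (-0.36 to -0.14).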

How the data were processed

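The authors dissociated the ganglia, captured single cells with the BD Rhapsody system and deposited raw UMI counts (whole numbers, a value for each gene in each cell). The submitters' notes name GRCm38 and fastp. The aligner and annotation are not given in the sources used here.

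Cells with under 150 genes or over 25% mitochondrial counts were left out, as in the study's methods. Both libraries were clustered together in R 4.3.3 with Seurat 5.3.0 (2000 variable genes without Lrrc17, 20 principal components, Louvain resolution 0.8, and 1 within neurons, seed 1). Clusters were named from marker lists. The naming rules were made after the lists. Doublets were scored with Scrublet in scanpy 1.11.5 and removed only as an alternative (score above 0.25). Gene positions came from GENCODE M21, which held 37724 of the 39098 symbols (96.5%).

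For each class of a library the UMIs were added up and expressed as CPM, with an exact Poisson interval. A Clopper-Pearson interval is given for each share and a conditional exact binomial interval for each ratio, at 95%. Shares at a fixed depth are hypergeometric expectations. The ratio step was tested on simulated Poisson counts, which hold no spread beyond counting error, so it says nothing on the spread between cells or mice. Named genes were Lrrc17, the like-level and like-pattern genes, its neighbours and the gene lists. A like-pattern gene is not reported here. Lrrc17 and these lists were chosen with earlier results of these data known. Alternatives changed the cell filter, doublets, resolution, weighting, depth and count minimum, or left out 1 neuron cluster at a time.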

Additional observations from a re-analysis of the deposited data

How the results depend on the processing

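Over all neurons and the 7 classes, the 96 log2 ratios of the alternatives lay between 1.11 and 2.19, all above 0. They recompute the neuronal contrast that chose Lrrc17, so this direction follows in part from that choice. Some of them left 1 neuron cluster at a time out of the ratio of all neurons, which was not planned. With every cell weighted equally, all neurons gave 1.59, with 97.7 CPM in the CFA library. Among cells with at least 2000 UMIs, FB gave a log2 ratio of -0.58, and the CFA level was 20.7 CPM in FB, 84.6 CPM in mSC, 7.34 CPM in EC and 10.1 CPM in OLC. The nmSC of that depth had 0 CPM in both libraries, so they gave no ratio. Without the mitochondrial limit the CFA nmSC stood at 23.8 CPM with a log2 ratio of 0.25, and the nmSC ratio was 0.78 and 0.68 at the lower and the higher resolution. The SGC ratio turned to -0.32 in cells without neuron marker UMIs. At a lower resolution PEP1 stood at 33.9 and 90.1 CPM. At a higher resolution no cluster took the name Trpm8. With equal weights OLC stood at 33.3 and 51.4 CPM. The mSC without neuron marker UMIs, an alternative chosen after seeing the data, gave a log2 ratio of 1.29. Detection in neurons was 14.4% and 36.1% at 5000 UMIs, and 63.4% and 84.1% as found. The number of genes past 2-fold higher in CFA neurons was 65 with at least 100 counts and 2 with at least 1000. No paired analysis was possible because each group has 1 library. Counts of 26 or fewer per library limit nmSC, EC, OLC, IC, mural cells, erythrocytes, the control PEP2 neurons and the CFA cells of SGC and FB. Neither the control label nor the mice per library could be settled.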
